A study of Mus musculus with 18 samples.

Results

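The genes described here are a set of 43 interferon-stimulated genes. With earlier results of these data known, they were listed by name for their roles in the interferon response. Of these, 42 had a probe set with their symbol alone among the 19505 genes measured, and Ifi44 was not analysed here. They were followed through 6 groups of cells from C57Bl/6J mice: hematopoietic stem cells of the long-term (LT-HSC) and short-term (ST-HSC) repopulating kind and multipotent progenitors (MPP), each from the fetal liver (FL) of E13.5 embryos and from the bone marrow (BM) of adults aged 3 to 12 months. All were sorted as LSK cells and divided by Cd150 and Cd48. Total RNA was measured on Affymetrix Clariom S arrays, with 3 arrays per group lettered a, b and c. The titles, source names and stages gave the groups. The free-text descriptions go against them: they name transplanted mice for all 18 arrays, sgEzh2 for FL LT-HSC a, FL ST-HSC a, FL MPP a and FL MPP b, and sgLuc for the rest. The labels do not say whether the 3 arrays in each group stand for different animals, litters or pools, and the p-values then cover the spread between these samples alone, which may be technical.

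Interferons are cytokines made mostly when cells sense foreign nucleic acid. Type I interferons bind Ifnar1 and Ifnar2, whose kinases Jak1 and Tyk2 activate a complex holding Stat2 and Irf9 that binds the interferon-stimulated response element (ISRE) in promoters, while interferon gamma acts through Ifngr1, Ifngr2, Jak1 and Jak2 on the gamma-activated site (GAS). The induced genes encode sensors, nucleic acid-degrading systems, GTPases and membrane proteins that restrict viruses and intracellular parasites. In blood formation, interferon can draw dormant adult stem cells into division, stem cells hold some of these genes at a basal level without infection, and inflammatory signals of this kind also take part in the emergence of stem cells in the embryo.

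The promoters are shown first because both elements can be read in the sequence. RefSeq promoter windows of GRCm38.p6, 300 bases long with 250 before and 50 after the start of the gene, matched 31 of the 43 members, 5 of them with several windows. The members with none were Dhx58, Zbp1, Oas2, Usp18, Mx1, Mx2, Iigp1, Ly6e, Parp9, Parp14, Ifi27 and Rtp4. Both strands were searched for the ISRE core GAAANNGAAA and the GAS core TTCNNNGAA. Of all 32851 windows 149 held both. Counted by gene, the ISRE core lay in 16 of the 31 members (51.6%) and in 3.99% of all 27025 genes with a window, and the GAS core in 8 members (25.8%) and in 9.55% of all genes. Counted by window, the shares were 3.44% and 8.3% of all windows, and 17 and 8 of the members' 36 windows. A match is a description of letters, not of a bound site, and a window without a match says only that these letters were not in it. The bases before the start, 250 in each case, are printed below 5′ to 3′ along the gene's own strand for the 5 members with an ISRE core and the largest average difference between FL and BM, and for Samd9l, the member with the largest such difference among those with a window but no ISRE core. Capitals mark the ISRE core, which can be read on either strand, and overlapping matches run together.
Oas3, chr5:120777660-120777909, minus strand: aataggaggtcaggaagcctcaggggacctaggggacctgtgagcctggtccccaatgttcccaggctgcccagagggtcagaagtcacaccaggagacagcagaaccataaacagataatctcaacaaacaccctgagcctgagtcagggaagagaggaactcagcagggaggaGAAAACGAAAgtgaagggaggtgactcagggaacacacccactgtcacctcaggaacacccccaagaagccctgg
Gbp3, chr3:142559794-142560043, plus strand: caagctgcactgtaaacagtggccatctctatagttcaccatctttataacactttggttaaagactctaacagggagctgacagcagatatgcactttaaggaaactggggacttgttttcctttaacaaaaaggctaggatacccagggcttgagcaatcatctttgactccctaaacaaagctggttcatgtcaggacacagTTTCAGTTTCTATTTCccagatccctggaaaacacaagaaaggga
Gbp2, chr3:142620413-142620662, plus strand: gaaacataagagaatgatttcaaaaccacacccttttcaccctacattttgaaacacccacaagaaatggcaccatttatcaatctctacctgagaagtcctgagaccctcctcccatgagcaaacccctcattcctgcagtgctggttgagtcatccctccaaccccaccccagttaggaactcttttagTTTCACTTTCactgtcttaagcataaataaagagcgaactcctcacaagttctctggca
Igtp, chr11:58199306-58199555, plus strand: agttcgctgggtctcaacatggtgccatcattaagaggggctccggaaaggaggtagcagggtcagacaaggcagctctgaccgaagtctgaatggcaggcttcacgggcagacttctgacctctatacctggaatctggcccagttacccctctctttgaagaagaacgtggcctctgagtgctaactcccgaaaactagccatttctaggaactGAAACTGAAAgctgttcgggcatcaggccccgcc
Irgm1, chr11:48871421-48871670, minus strand: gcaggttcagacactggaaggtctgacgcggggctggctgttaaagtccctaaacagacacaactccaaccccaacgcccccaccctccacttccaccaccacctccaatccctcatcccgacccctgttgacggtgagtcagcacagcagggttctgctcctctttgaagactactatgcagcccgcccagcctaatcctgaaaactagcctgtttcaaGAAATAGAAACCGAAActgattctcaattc
Samd9l, chr6:3399572-3399821, minus strand: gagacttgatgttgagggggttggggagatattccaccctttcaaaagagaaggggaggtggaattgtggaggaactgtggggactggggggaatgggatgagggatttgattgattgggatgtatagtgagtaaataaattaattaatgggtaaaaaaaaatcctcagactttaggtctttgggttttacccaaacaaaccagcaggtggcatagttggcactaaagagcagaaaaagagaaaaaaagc

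On the gene's own strand, the core lay 75 bases before the start in Oas3, Irgm1 held overlapping matches at 30 and 24 bases before it, and Igtp held 1 at 34 with a GAS core beside it. On the opposite strand, Gbp2 held a match at 59 bases before the start and Gbp3 overlapping matches at 45 and 39. A further 6 members carried an ISRE core but were not called between the sources on average. They were picked after their values were seen, to set beside the promoters above, and are given as stretches of 30 bases around the first match.
Eif2ak2, chr17:78882535-78882564, minus strand: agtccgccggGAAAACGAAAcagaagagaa
Oas1a, chr5:120907526-120907555, minus strand: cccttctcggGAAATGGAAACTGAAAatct
Ifit1, chr19:34640775-34640804, plus strand: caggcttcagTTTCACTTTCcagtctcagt
Ifit3, chr19:34583363-34583392, plus strand: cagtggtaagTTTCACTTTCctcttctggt
Isg15, chr4:156200877-156200906, minus strand: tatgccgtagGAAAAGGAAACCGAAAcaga
Bst2, chr8:71537583-71537612, minus strand: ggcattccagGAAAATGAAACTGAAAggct

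Isg15 carried 3 overlapping matches, the last of which runs past the printed stretch, and Bst2 and Oas1a each held an overlapping pair. On the opposite strand, Ifit1 held matches at 104 and 85 bases before the start and Ifit3 at 156 and 122. The match nearer the start lies outside the printed stretch in both. Of the members with both a window and a value, 10 of the 21 that were lower in FL on average carried an ISRE core, against 6 of the 9 that were not called. The GAS core lay in 3 of the 21 and 5 of the 9. The members with no window are left out of these counts. Most of them were lower in FL on average, among them Iigp1 and Ifi27, which had the largest differences. Members with an ISRE core were therefore found both among those lower in FL and among those not called. Irf1, which is known as a target of interferon gamma through a GAS, carried a GAS core beginning 90 bases before the start and no ISRE core.

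**Figure D1:**
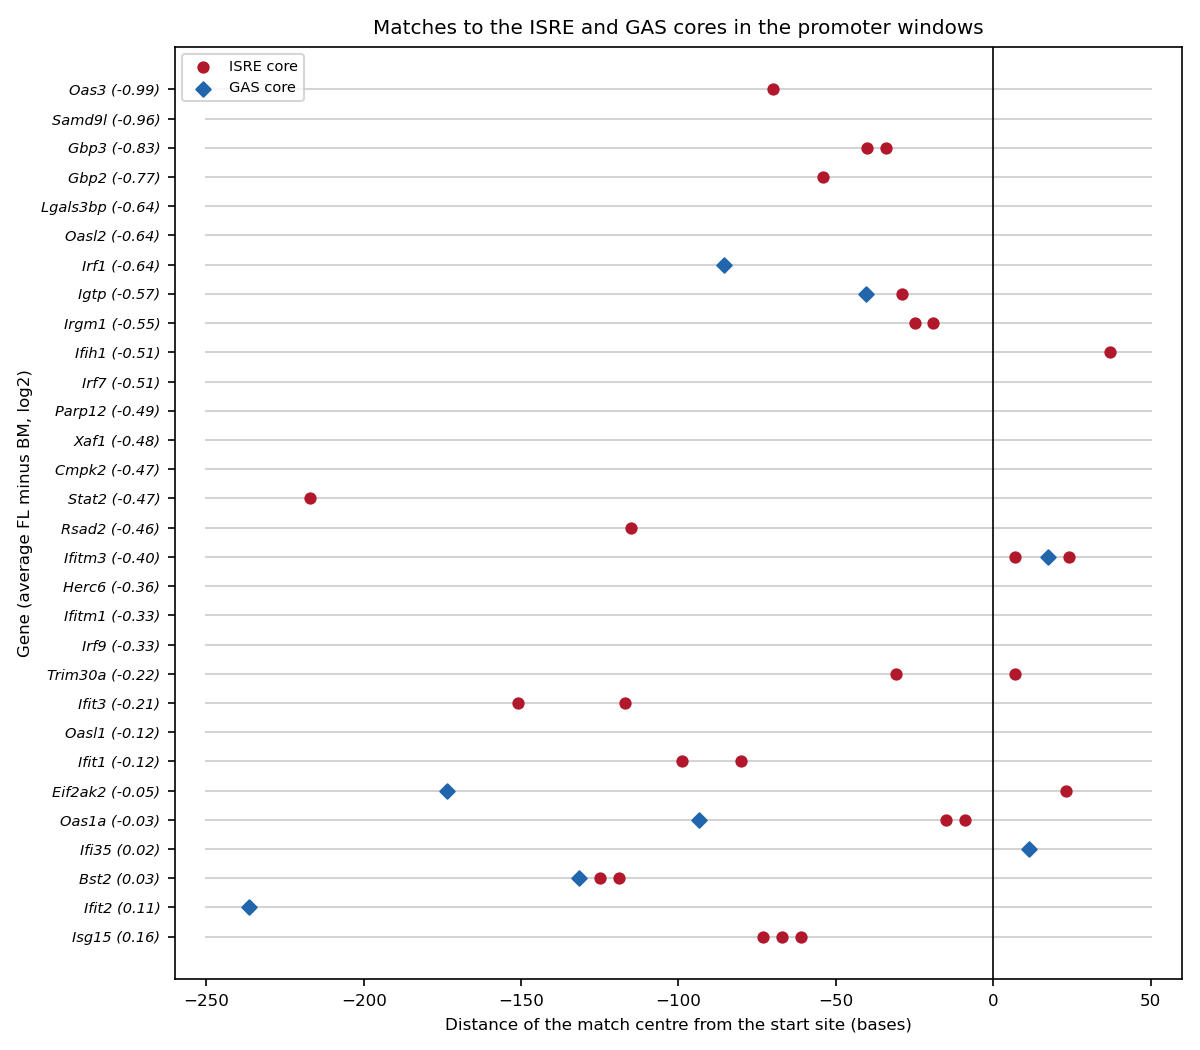
Positions of ISRE cores (red circles) and GAS cores (blue diamonds) in the promoter windows of the 30 members with a window and a value; the x axis is the distance of the centre of a match from the start site in bases, and genes are ordered by the average FL minus BM difference (log2, in brackets). ISRE cores appear both among the genes lowest in FL at the top and among the uncalled genes at the bottom, such as Bst2 and Isg15.

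The sorted cells and arrays set the limits of what follows. Slamf1, which encodes Cd150, had mean log2 values of 9.31, 7.49 and 6.71 in LT-HSC, ST-HSC and MPP of FL and 9.66, 8.04 and 7.25 in BM, in the order of the gates. It was lower in FL by -0.48 ± 0.11 (log2 difference ± SE, adjusted p = 0.0025), while Kit (0.04 ± 0.07, adjusted p = 0.7) and Cd48 (-0.10 ± 0.18, adjusted p = 0.717) were not called between the sources. Array medians lay between 7.68 and 7.78. The interquartile range was 2.98 to 3.18 in 14 arrays and 2.61 to 2.71 in FL LT-HSC b, BM ST-HSC b, BM ST-HSC c and BM LT-HSC c, called narrow arrays here. The description names of FL ST-HSC b and c and of all 3 BM LT-HSC arrays end in an added letter whose meaning is not given. The Y-linked gene Kdm5d was at 6.64 to 8.09 in FL arrays and 4.07 to 4.88 in BM arrays, without overlap. Uty, also Y-linked, was at 6.92 to 7.77 in FL and 3.77 to 4.17 in BM. The sex makeup of the samples thus ran with the source and cannot be told apart from it, and its part in the differences below was not tested.

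Across the 3 populations weighted equally, 31 of the 42 members were lower in FL than in BM and 0 were higher, while 11 did not pass (limma, adjusted p under 0.05 over all genes). By the same rule 9.26% of all genes were lower and 15.9% higher. The members were chosen with earlier results of these data known, so the counts beside these shares are descriptions and not independent support. The median difference was -0.46 over the members and 0.01 over all genes, and 37 of the 42 members lay below 0. The largest differences were those of Iigp1 (2.9-fold lower), Ifi27 (2.63-fold), Oas3 (1.98-fold), Samd9l (1.95-fold) and Gbp3 (1.78-fold). Of the 42 members, 9 had all 9 FL arrays below all 9 BM arrays, which held for 1.63% of all genes. These were Irf1, Zbp1, Oas3, Usp18, Iigp1, Ly6e, Cmpk2, Ifi27 and Lgals3bp. In bulk samples, fewer cells that express a gene and less RNA per cell cannot be told apart.

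**Figure D2:**
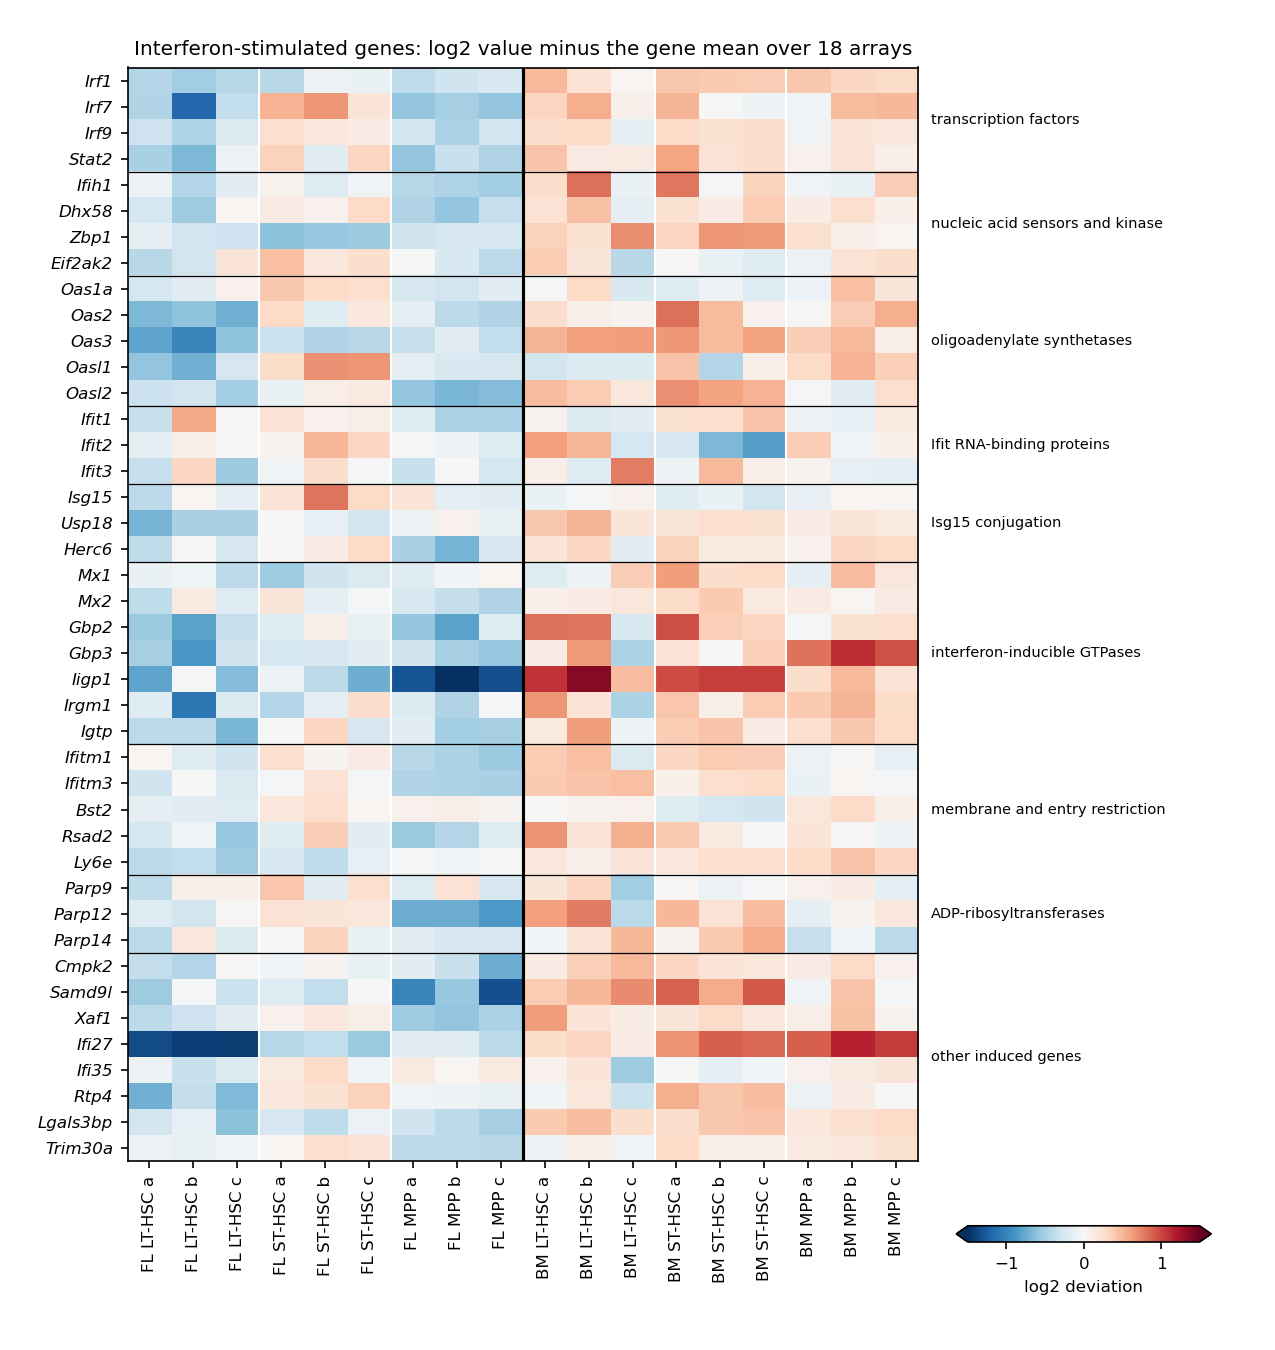
Heat map of the log2 value minus the gene's mean over 18 arrays for the 42 members (rows, grouped by role) in each array (columns; FL left and BM right of the black line). Blue, below the mean, fills most of the FL LT-HSC and FL MPP columns, while FL ST-HSC arrays are mixed and BM arrays are mostly red.

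The factors that carry the signal to the promoters were lower in FL, 4 of 4. Irf1, the factor that interferon gamma induces, ranged from 8.94 to 9.37 in FL (median 9.08) and from 9.49 to 9.95 in BM (median 9.82). The sources did not overlap, and the difference was -0.64 ± 0.07 (adjusted p = 4.22e-06). Irf7, which drives production of further type I interferon, was at 8.09, 7.37 and 8.17 in FL LT-HSC, 9.06, 9.20 and 8.74 in FL ST-HSC and 7.96, 8.04 and 7.95 in FL MPP. The BM arrays lay between 8.47 and 9.09, so FL LT-HSC and FL MPP were below all of BM while the FL ST-HSC arrays lay in or above its range. The average difference of Irf7 was -0.51 ± 0.13 (adjusted p = 0.0059). Irf9 and Stat2, which bind at the ISRE together, differed by -0.33 ± 0.07 and -0.47 ± 0.10.

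Of the nucleic acid sensors and the kinase, 3 of 4 were lower. Zbp1, a sensor of Z-form nucleic acid that can trigger necroptosis, ranged from 7.58 to 8.05 in FL (median 7.90) and from 8.22 to 8.89 in BM (median 8.52), without overlap. It differed by -0.72 ± 0.08 (adjusted p = 1.66e-06). Ifih1, the cytoplasmic sensor of long double-stranded RNA, ranged from 8.43 to 9.0 in FL (median 8.75) and from 8.83 to 9.77 in BM (median 9.21), with some overlap, and differed by -0.51 ± 0.12 (adjusted p = 0.00515). Dhx58, which modulates that sensing, differed by -0.37 ± 0.09. Eif2ak2, the kinase PKR that halts translation on binding double-stranded RNA, was not called at -0.05 ± 0.11.

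Among the oligoadenylate synthetase family, whose active members make the messenger that switches on RNase L, 3 of 5 were lower. Oas3 was at 6.11, 5.91 and 6.30 in FL LT-HSC, 6.58, 6.46 and 6.49 in FL ST-HSC and 6.57, 6.75 and 6.54 in FL MPP. In BM it was at 7.41, 7.52 and 7.53 in LT-HSC, 7.56, 7.38 and 7.51 in ST-HSC and 7.27, 7.39 and 7.01 in MPP. Each FL array was below each BM array, and the difference was -0.99 ± 0.07 (adjusted p = 2.19e-08). Oasl2 ranged from 7.59 to 8.42 in FL (median 7.95) and from 8.10 to 8.96 in BM (median 8.66), a difference of -0.64 ± 0.07 (adjusted p = 5.22e-06), and Oas2 differed by -0.60 ± 0.10. Oas1a (-0.03 ± 0.09) and Oasl1 (-0.12 ± 0.10), which represses translation of Irf7, were not called. The Oas1 genes are near copies of each other, so the signal of Oas1a may include others.

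None of the 3 Ifit genes, whose proteins bind foreign RNA ends, was called in the average. Ifit3 ranged from 7.15 to 8.0 in FL and from 7.49 to 8.45 in BM, a difference of -0.21 ± 0.13 (adjusted p = 0.277). Ifit1 ranged from 7.36 to 8.40 and from 7.63 to 8.27, a difference of -0.12 ± 0.10 (adjusted p = 0.438), and Ifit2 differed by 0.11 ± 0.12. The sources overlapped for each of them, and Ifit1 and Ifit3 have close paralogs whose signal the probes may share.

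Isg15 is a ubiquitin-like protein, Herc6 is the enzyme that attaches it in mice, and Usp18 removes it and also blocks signalling at the type I receptor. Usp18 was at 8.20, 8.41 and 8.42 in FL LT-HSC, 8.89, 8.78 and 8.62 in FL ST-HSC and 8.82, 8.96 and 8.79 in FL MPP, all below the BM range of 9.01 to 9.41. It differed by -0.49 ± 0.07 (adjusted p = 3.64e-05). Herc6 ranged from 9.15 to 10.13 in FL (median 9.60) and from 9.68 to 10.18 in BM (median 10.03), a difference of -0.36 ± 0.09 (adjusted p = 0.00588). Isg15 was not called in the average (0.16 ± 0.09, adjusted p = 0.234).

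All 7 members listed as interferon-inducible GTPases were lower in FL on average. Iigp1, an immunity-related GTPase that attacks the vacuoles of intracellular parasites, was at 6.91, 7.68 and 7.05 in FL LT-HSC, 7.61, 7.31 and 6.96 in FL ST-HSC and 6.41, 6.08 and 6.38 in FL MPP. In BM it was at 8.78, 9.07 and 8.16 in LT-HSC, 8.67, 8.74 and 8.74 in ST-HSC and 7.97, 8.18 and 7.90 in MPP. The sources did not overlap, and within each the MPP arrays tended to be lowest. The difference was -1.54 ± 0.13 (adjusted p = 8.21e-08). Gbp3, a guanylate-binding protein, was at 8.72, 8.34 and 8.92 in FL LT-HSC, 8.95, 8.97 and 9.05 in FL ST-HSC and 8.91, 8.71 and 8.64 in FL MPP. Its BM values were 9.33, 9.86 and 8.75 in LT-HSC, 9.44, 9.23 and 9.58 in ST-HSC and 10.03, 10.32 and 10.17 in MPP. Only BM LT-HSC c reached into the FL range, and the difference was -0.83 ± 0.12 (adjusted p = 6.06e-05). Gbp2 (-0.77 ± 0.14), Igtp (-0.57 ± 0.10), Irgm1 (-0.55 ± 0.15), Mx1 (-0.40 ± 0.10) and Mx2 (-0.32 ± 0.08) made up the rest. Mx1 and Mx2 restrict viruses, but C57Bl/6 mice are known to carry defective copies of both, so these are transcript levels and not antiviral activity.

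**Figure D3:**
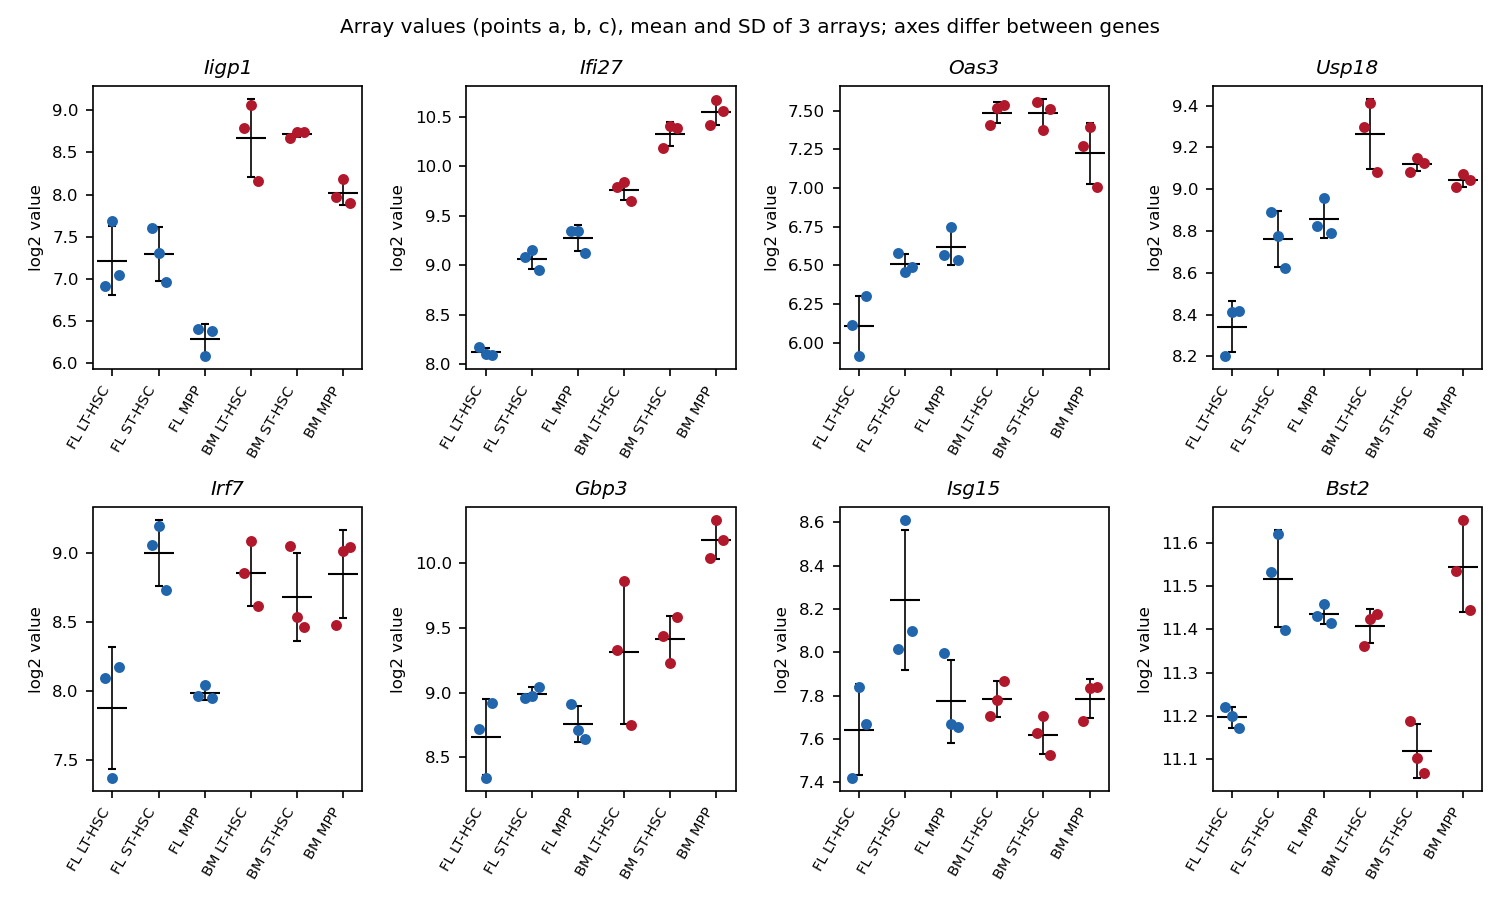
Log2 values of 8 members in each array (blue FL, red BM; points are arrays a, b and c, bars the mean and SD of 3 arrays; y axes differ). The FL points of Iigp1, Ifi27, Oas3 and Usp18 lie below every BM point, whereas Irf7, Isg15 and Bst2 in FL ST-HSC reach or pass the BM level.

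Of the membrane proteins that limit viral entry or release, 4 of 5 were lower. Ly6e, a lipid-anchored surface protein that restricts coronavirus entry, ranged from 12.37 to 12.91 in FL (median 12.67) and from 12.99 to 13.34 in BM (median 13.15), without overlap, and differed by -0.48 ± 0.06 (adjusted p = 1.39e-05). Rsad2, or viperin, which makes a chain-terminating nucleotide, ranged from 6.29 to 7.24 in FL and from 6.79 to 7.54 in BM and differed by -0.46 ± 0.10 (adjusted p = 0.00325). Ifitm3, known to be kept at a basal level in stem cells, differed by -0.40 ± 0.07 and Ifitm1 by -0.33 ± 0.09. Ifitm genes share sequence, so the signals may not be separate. Bst2, or tetherin, which holds budding viruses at the membrane, was not called at 0.03 ± 0.06.

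Parp12, 1 of the 3 ADP-ribosyltransferases, ranged from 9.78 to 10.85 in FL and from 10.23 to 11.41 in BM and was lower by -0.49 ± 0.12 (adjusted p = 0.00575). Parp14 ranged from 6.94 to 7.70 in FL and from 6.94 to 7.90 in BM, and neither it (-0.19 ± 0.10) nor Parp9 (0.01 ± 0.12) was called. Of the other induced genes 7 of 8 measured were lower. Ifi27, a small mitochondrial membrane protein, was at 8.17, 8.10 and 8.10 in FL LT-HSC, 9.08, 9.15 and 8.96 in FL ST-HSC and 9.35, 9.35 and 9.13 in FL MPP. In BM it was at 9.79, 9.84 and 9.65 in LT-HSC, 10.19, 10.41 and 10.38 in ST-HSC and 10.42, 10.68 and 10.57 in MPP. The lowest BM array was above the highest FL array, with a difference of -1.39 ± 0.07 (adjusted p = 5.48e-11).

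Samd9l, an endosomal protein known to restrain growth factor signalling in blood cells, ranged from 8.08 to 9.38 in FL (median 9.02) and from 9.35 to 10.33 in BM (median 9.89). Its difference was -0.96 ± 0.11 (adjusted p = 4.83e-06), with the highest FL arrays just above the lowest BM array. Lgals3bp, a secreted galectin-binding glycoprotein, differed by -0.64 ± 0.08. Xaf1, a pro-apoptotic partner of XIAP, differed by -0.48 ± 0.08, and the mitochondrial nucleotide kinase Cmpk2 by -0.47 ± 0.09. Smaller differences were found for Rtp4, a Golgi chaperone of receptors (-0.28 ± 0.08), and Trim30a, which dampens Toll-like receptor signalling (-0.22 ± 0.06). Ifi35 was not called (0.02 ± 0.09).

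Cells of mature lineages are present in marrow, and many of their markers moved with the source. For the counts in these lists, the shares over all genes were 9.26% lower and 15.9% higher in FL. Neutrophil markers were lower in FL in 12 of 12 measured genes, among them Lcn2 (-5.95 ± 0.27) and Ngp (-5.77 ± 0.21). The array mean of the neutrophil list was 6.49 to 7.46 in FL and 9.84 to 12.35 in BM, highest in BM LT-HSC c. With that mean as a covariate 4 of the 42 members were lower in the average, but the list did not overlap between the sources, so the list and the source largely cannot be told apart. Macrophage markers were lower in 8 of 13 genes, led by C1qa (-1.88 ± 0.15) and Cd163 (-1.51 ± 0.15), with list means of 6.64 to 6.82 in FL and 7.19 to 8.66 in BM. Of B cell markers 8 of 10 were lower, led by Jchain (-3.59 ± 0.25) and Vpreb3 (-1.98 ± 0.21), with list means of 7.21 to 7.92 and 8.09 to 9.79.

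Plasmacytoid dendritic cells are strong producers of type I interferon. Of their 10 markers measured 5 were lower and 2 higher in FL, with Dntt, which lymphoid progenitors share, at -3.89 ± 0.21 and Ccr9 at 1.5 ± 0.21, and the list means were 7.39 to 8.10 in FL and 7.93 to 8.90 in BM. Of 10 markers of conventional dendritic cells and monocytes 5 were lower, led by Ly6c2 (-4.67 ± 0.20) and Ccr2 (-1.35 ± 0.27), and their means were 6.52 to 7.48 in FL and 7.49 to 8.52 in BM. Of 11 markers of T and NK cells 5 were lower and 1 higher, led by Nkg7 (-1.66 ± 0.13) and Cd3d (-1.09 ± 0.22), with means of 6.25 to 6.62 and 6.60 to 7.71. In the other direction, 7 of 12 hepatocyte markers were higher in FL, led by Alb (2.71 ± 0.40) and Afp (1.53 ± 0.36), with means of 7.15 to 8.98 in FL and 6.85 to 7.13 in BM. So were 4 of 9 endothelial markers, led by Cdh5 (1.51 ± 0.12) and Ptprb (1.38 ± 0.14). Their means were 7.21 to 8.46 in FL and 6.95 to 7.93 in BM. Of 7 erythroid markers 6 were not called and 1, Hbb-y (2.20 ± 0.44), was higher, near the share of 15.9% over all genes. The erythroid means were 7.74 to 10.42 in FL and 7.82 to 9.20 in BM. The part of these cell types in the members' differences was not tested, apart from the neutrophil covariate.

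The rest of the interferon pathway was read from 117 further genes, also listed with earlier results of these data known. Of these, 101 were measured. In the average 37 were lower and 5 higher in FL, against 9.26% and 15.9% of all genes. The counts among the receptors and the inhibitors below were near these shares. None of the 13 interferon genes was called, with differences between -0.18 and 0.17. Of the 6 receptor chains, Ifnar1 was higher in FL by 0.27 ± 0.08 and Il10rb, shared by the interferon lambda and interleukin-10 family receptors, was lower by 0.45 (-0.45 ± 0.11). Ifnar2 (-0.10 ± 0.07), Ifngr1 (-0.10 ± 0.09), Ifngr2 (0.18 ± 0.10) and Ifnlr1 (0.02 ± 0.09) were not called. Among kinases and further Irf factors 3 of 8 were lower: Tyk2 (-0.35 ± 0.09), Irf8 (-0.30 ± 0.09) and Jak1 (-0.23 ± 0.07). Jak2 was not called (-0.00 ± 0.07).

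Of 10 inhibitors measured, Nlrc3 was lower (-0.25 ± 0.08) and Ptpn11, a phosphatase that also carries growth factor signals, was higher (0.27 ± 0.09). Of 11 genes of upstream sensing 4 were lower and 2 higher, the latter near the share of all genes that were higher. Tlr3 (-0.85 ± 0.15), Ddx58 (-0.63 ± 0.11), which encodes RIG-I, Tlr7 (-0.61 ± 0.20) and the kinase gene Ikbke (-0.25 ± 0.08) were lower. Cgas, the sensor of cytoplasmic DNA (0.40 ± 0.11), and the kinase gene Tbk1 (0.34 ± 0.08) were higher. By population the difference of Tlr7 was -2.28 ± 0.35 in LT-HSC, 0.54 ± 0.35 in ST-HSC and -0.09 ± 0.35 in MPP.

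Among 53 other interferon-inducible genes 28 were lower and 1, Daxx, was higher (0.43 ± 0.10). Tgtp2, an immunity-related GTPase, had a larger difference than any member. It ranged from 7.04 to 8.80 in FL (median 7.73) and from 9.72 to 11.08 in BM (median 10.48), which is 6.5-fold lower (-2.70 ± 0.14, adjusted p = 1.2e-10), and its near copy Tgtp1 was not analysed here. Sp100, a nuclear body protein, ranged from 9.10 to 10.10 in FL and from 10.86 to 11.49 in BM (-1.63 ± 0.09). Ms4a4c (-1.52 ± 0.32) and the guanylate-binding protein gene Gbp4 (-1.26 ± 0.10) followed. For Tgtp2, Sp100 and Gbp4 the FL and BM arrays did not overlap, while those of Ms4a4c did.

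Within single populations the groups of 3 arrays were next compared, with the spread estimated over all 18 arrays. In LT-HSC 21 were lower in FL and 0 higher, where 4.58% of all genes were lower and 3.08% higher, with a median of -0.57 over the members. In MPP 19 were lower and 0 higher, against 3.55% and 1.92% of all genes, with a median of -0.55. In ST-HSC 11 were lower and 4 higher, against 6.52% and 12.1% of all genes, and the median was -0.22. The count of 4 higher did not exceed its share. With only the 6 arrays compared in the fit, 5 were lower in LT-HSC and 29 in MPP. The count in MPP was 9 to 11 without FL MPP b, FL MPP c, BM MPP b or BM MPP c in turn. Leaving out the 4 sgEzh2 arrays of FL reduces FL MPP to 1 array, assumed to vary like the other groups, and the count was then 4, and 10 in LT-HSC and 6 in ST-HSC.

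Irf1, Oas3, Oasl2, Iigp1, Ly6e, Samd9l, Ifi27 and Lgals3bp were lower in FL in each of the 3 populations. These 8 members compare with 1.47% of all genes. In 12 members all 3 FL arrays lay below all 3 BM arrays in each population, as in 3.02% of all genes: these 8 and Zbp1, Usp18, Gbp2 and Cmpk2. Ifi27 was lower by -1.63 ± 0.12 in LT-HSC, -1.27 ± 0.12 in ST-HSC and -1.28 ± 0.12 in MPP. Iigp1 differed by -1.46 ± 0.22, -1.42 ± 0.22 and -1.73 ± 0.22 in the same order. The difference of Oas3 ran from -1.38 ± 0.13 in LT-HSC through -0.97 ± 0.13 in ST-HSC to -0.61 ± 0.13 in MPP, and that of Usp18 from -0.92 ± 0.12 through -0.36 ± 0.12 to -0.19 ± 0.12, of which the last was not called (adjusted p = 0.509). Gbp3 was called in MPP alone (-1.42 ± 0.21, adjusted p = 0.000245).

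**Figure D4:**
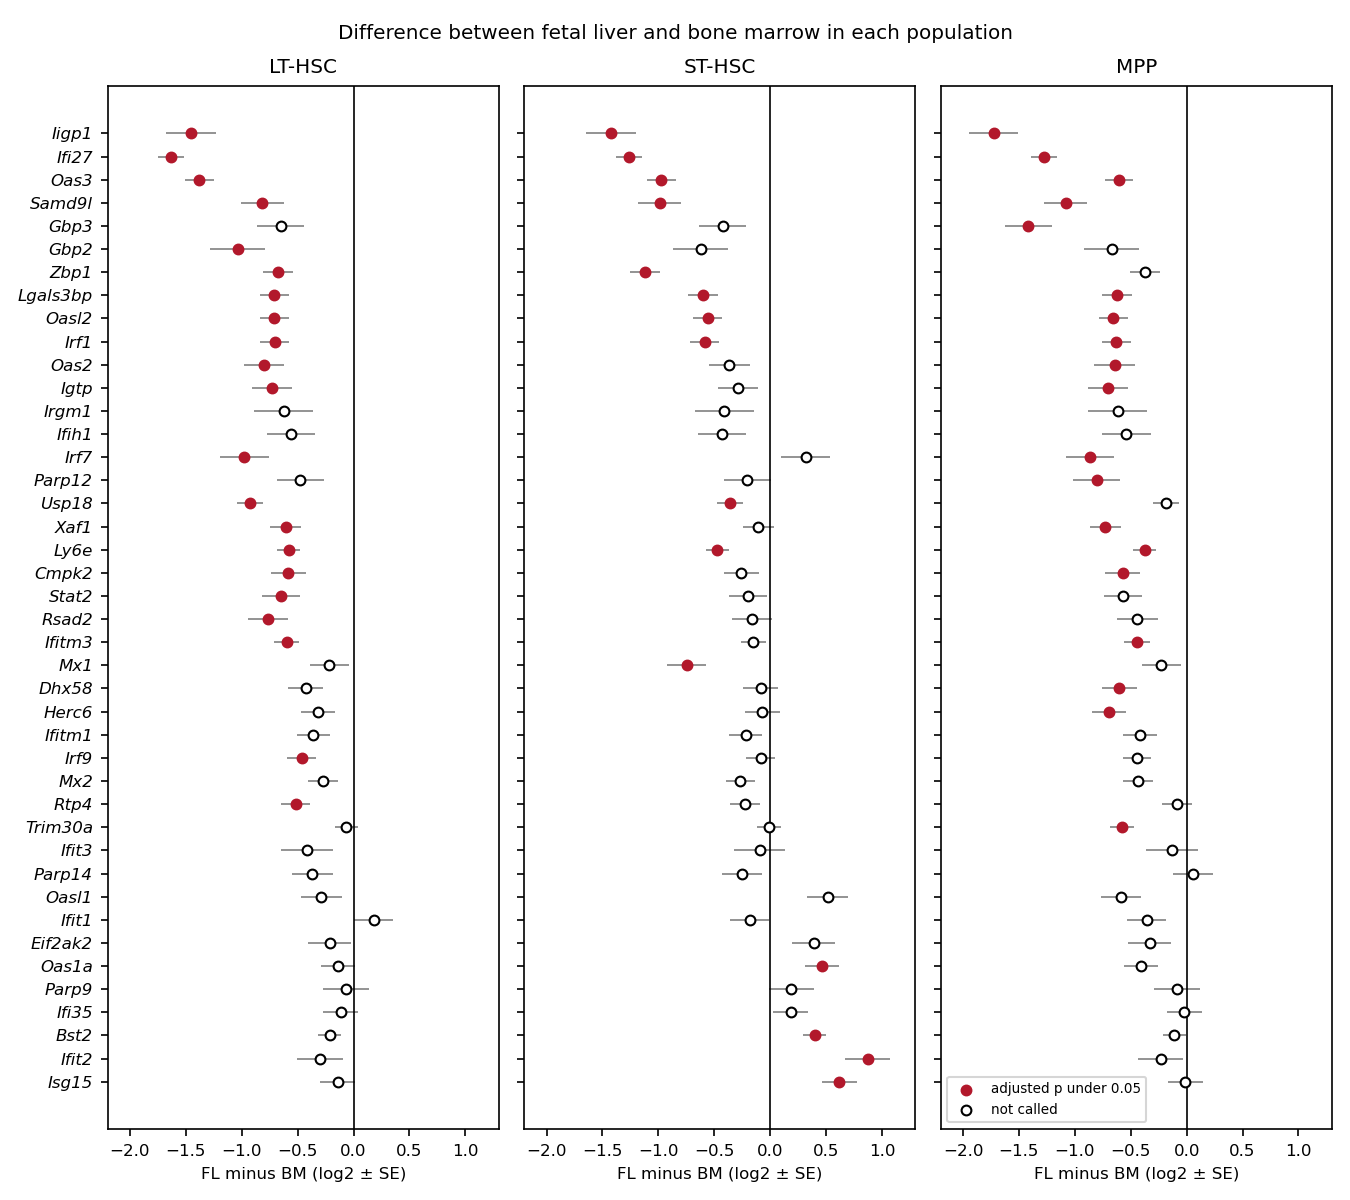
FL minus BM difference (log2, with SE of the fit) of each member in LT-HSC, ST-HSC and MPP, in the order of the average difference; filled red points have a limma adjusted p under 0.05. Most points lie left of 0 in LT-HSC and MPP, and the 4 filled points right of 0 are all in ST-HSC: Oas1a, Bst2, Ifit2 and Isg15. Of all genes 12.1% were called higher in FL ST-HSC.

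The 4 members higher in FL ST-HSC were Ifit2, Isg15, Oas1a and Bst2. Of all genes 12.1% were called higher in FL ST-HSC, and the share of the members was no larger. The 4 are therefore described gene by gene and not as a trait of the members. Ifit2 was at 7.43, 7.89 and 7.71 in FL ST-HSC and 7.14, 6.72 and 6.56 in BM ST-HSC (0.87 ± 0.20, adjusted p = 0.0077). Its BM ST-HSC values were also below those of BM MPP (7.76, 7.35 and 7.47), and in FL LT-HSC it was at 7.24, 7.49 and 7.40. Isg15 was at 8.02, 8.61 and 8.10 in FL ST-HSC and 7.63, 7.71 and 7.53 in BM ST-HSC (0.62 ± 0.15, adjusted p = 0.0115). Array b was the highest of the FL values, and the groups did not overlap. In LT-HSC Isg15 was at 7.42, 7.84 and 7.67 in FL against 7.71, 7.78 and 7.87 in BM, and in MPP at 8.0, 7.67 and 7.66 against 7.68, 7.84 and 7.84.

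Oas1a was at 9.36, 9.24 and 9.20 in FL ST-HSC and 8.77, 8.88 and 8.76 in BM ST-HSC (0.46 ± 0.15, adjusted p = 0.0409). In MPP the order was the other way, with 8.72, 8.67 and 8.80 in FL and 8.87, 9.40 and 9.14 in BM. Bst2 was at 11.53, 11.62 and 11.40 in FL ST-HSC and 11.19, 11.10 and 11.07 in BM ST-HSC (0.40 ± 0.10, adjusted p = 0.0132), and in LT-HSC at 11.22, 11.20 and 11.17 in FL and 11.36, 11.42 and 11.44 in BM. These 4 calls rest on few arrays. Of the 4, 0 were called higher without BM ST-HSC c, 1 without FL ST-HSC b and 2 without BM ST-HSC b. None was called without the narrow arrays, which leaves 1 BM ST-HSC array, or without FL ST-HSC b and c, which leaves 1 FL ST-HSC array, each assumed to vary like the other groups.

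The test of whether the FL minus BM difference varied between populations (limma moderated F over the interaction of source and population) called 0 of the 42 members and 0.82% of all genes. At an unadjusted p under 0.05 it held 15 members and 12.4% of all genes. The lowest adjusted p-values were those of Usp18 (0.0729), Irf7 (0.074), Ifit2 (0.0799), Bst2 (0.0827) and Oasl1 (0.0862). A difference between populations was thus not shown for any member at this threshold. The count was 6 without BM LT-HSC c, 6 without BM ST-HSC a and 16 with array weights.

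Along the populations of FL, 36 of 42 members had their highest group mean in ST-HSC, 5 in MPP and 1 in LT-HSC, where 25.1% of all genes had theirs in ST-HSC. In BM 18 were highest in ST-HSC, 14 in MPP and 10 in LT-HSC, and 33.9% of all genes in ST-HSC. Most of these differences did not pass the test, and of the members Irf7 and Oasl1 alone were called above both other FL populations. Between FL ST-HSC and FL MPP 13 members were higher in ST-HSC and 0 lower, against 1.58% and 0.677% of all genes, with a median of 0.41 over the members and -0.06 over all genes. They were Irf7, Irf9, Dhx58, Oasl1, Oasl2, Herc6, Iigp1, Ifitm1, Ifitm3, Parp12, Samd9l, Xaf1 and Trim30a. Irf7 had the largest of these differences, 1.02 ± 0.22 (2.02-fold), followed by Iigp1 (1.0 ± 0.22) and Parp12 (0.97 ± 0.21). Between FL LT-HSC and FL ST-HSC 4 members, Irf7 (-1.12 ± 0.22), Oasl1 (-1.06 ± 0.18), Ifi27 (-0.94 ± 0.12) and Rtp4 (-0.82 ± 0.13), were lower in LT-HSC and 0 higher, against 0.467% and 0.0923% of all genes. In 13 members all 3 FL ST-HSC arrays lay above all 6 other FL arrays, as in 2.27% of all genes, and in BM this held for 3 members, Oasl2, Ifit1 and Rtp4, and 2.06% of all genes.

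The count of 13 in FL was 3 without FL ST-HSC b, FL MPP a, FL MPP b or FL MPP c in turn, 5 without FL ST-HSC a or FL ST-HSC c, and 7 without BM MPP c. It was 0 both without FL ST-HSC b and c together and without the arrays described as sgEzh2, each of which leaves an FL group with 1 array. The median of 0.41 was 0.40 without FL ST-HSC b and c. The count between FL LT-HSC and FL ST-HSC was 1 in each of these cases and 2 without FL LT-HSC b.

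**Figure D5:**
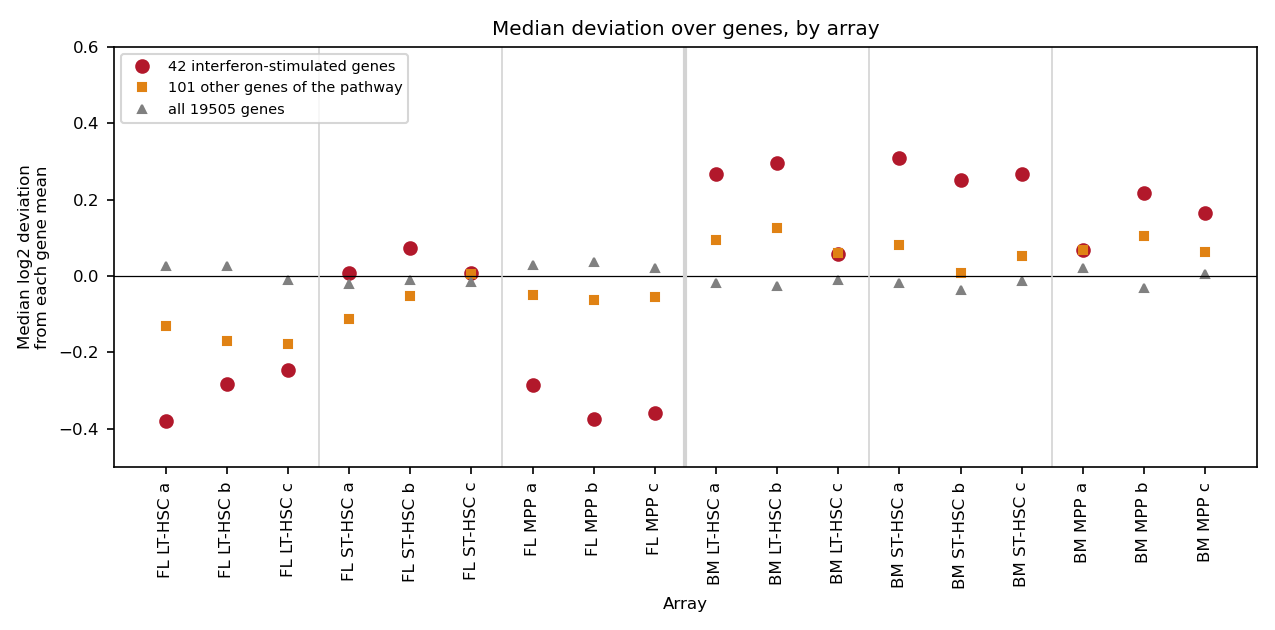
Median deviation from each gene's mean over 18 arrays (log2) in each array, for the 42 members (red), the 101 other pathway genes (orange) and all genes (grey). Member medians are -0.38 to -0.25 in FL LT-HSC, 0.01 to 0.07 in FL ST-HSC, -0.37 to -0.28 in FL MPP and 0.06 to 0.31 in BM arrays.

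Between LT-HSC and MPP, the ends of the series, the members did not move as a group, with medians of 0.03 in FL and 0.03 in BM. In FL 5 members were lower in LT-HSC and 1 higher, against 1.84% and 1.57% of all genes, and the count of 1 higher was near its share. Ifi27 was lower by -1.15 ± 0.12 (adjusted p = 7.76e-06), Usp18 by -0.52 ± 0.12 (0.0165), Oas3 by -0.51 ± 0.13 (0.0332), Rtp4 by -0.49 ± 0.13 (0.048) and Ly6e by -0.41 ± 0.10 (0.0378), while Iigp1 was higher by 0.92 ± 0.22 (0.0241). The count of 5 was 1 without FL LT-HSC a, FL MPP a or FL MPP b in turn, 2 without FL MPP c, and 3 without FL LT-HSC b, FL LT-HSC c, BM ST-HSC b, BM ST-HSC c, BM MPP a or BM MPP c. It was 2 with only the groups compared and 2 with a fixed replicate block. The 1 higher was 0 without FL LT-HSC b, FL MPP a or FL MPP c, 2 without FL LT-HSC a and 3 without BM LT-HSC c. The array values of Ifi27, Usp18 and Oas3 given above did not overlap between these FL groups, and neither did those of Iigp1.

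In BM 2 members were lower in LT-HSC than in MPP, Gbp3 (-0.86 ± 0.21, adjusted p = 0.0224) and Ifi27 (-0.79 ± 0.12, adjusted p = 0.000401), and 1, Ifitm3, was higher (0.45 ± 0.11, adjusted p = 0.0269). The shares of all genes were 2.35% and 2.23%, and the count of 1 higher was near its share. The 2 lower became 1 without BM LT-HSC a, BM LT-HSC c, BM MPP b or BM MPP c in turn. The 1 higher became 0 without BM LT-HSC a, BM LT-HSC b or any BM MPP array, and 4 without BM LT-HSC c. Ifitm3 was at 12.14, 12.18 and 12.20 in BM LT-HSC, 11.82, 12.00 and 12.04 in BM ST-HSC and 11.66, 11.79 and 11.72 in BM MPP, in descending order without overlap. In FL it was at 11.45, 11.74 and 11.53, 11.73, 11.96 and 11.72, and 11.29, 11.27 and 11.26, so that ST-HSC and LT-HSC overlapped and MPP lay lowest. Between BM LT-HSC and BM ST-HSC 1 member, Ifi27, was lower in LT-HSC (-0.57 ± 0.12) and 1, Ifit2, was higher (0.87 ± 0.20), against 0.502% and 1.21% of all genes, and both counts were 0 without BM ST-HSC b or BM ST-HSC c in turn. Between BM ST-HSC and BM MPP Oasl2 (0.59 ± 0.13), Samd9l (0.67 ± 0.19) and Rtp4 (0.46 ± 0.13) were higher in ST-HSC. Gbp3 (-0.76 ± 0.21), Ifit2 (-0.72 ± 0.20) and Bst2 (-0.43 ± 0.10) were lower. These 3 and 3 members compare with 1.31% of all genes higher and 4.79% lower, and both counts were 0 without the narrow arrays, which leaves 1 BM ST-HSC array. Leaving out single arrays gave 0 to 4 lower, with 0 without BM ST-HSC b, BM ST-HSC c, BM MPP a or BM MPP b, and 0 to 7 higher, with 0 without BM MPP a or BM MPP b and 7 without BM LT-HSC c.

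Ifi27 was the member called in the same direction in both sources between LT-HSC and MPP and between LT-HSC and ST-HSC, and Oasl2 and Samd9l were those between ST-HSC and MPP. The signs of the differences between LT-HSC and MPP were the same in FL and BM for 32 of 42 members, against 67.4% of all genes. Between LT-HSC and ST-HSC they were the same for 25 (42.8% of all genes) and between ST-HSC and MPP for 24 (54.2%).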

How the data were processed

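Total RNA of sorted cells was labelled from 2 ng with 10 cycles of amplification before transcription and hybridised to Clariom S arrays, per the labels' protocols. The authors deposited log2 signals, 1 per probe set and array, made in R 3.5.01 with oligo, per the submitters' processing notes. How background was corrected and signals normalized and summarized was not given in the sources used here. Of 22203 probe sets, 19572 carried 1 gene symbol. The brightest probe set of a gene was kept, which gave 19505 genes. One limma model (3.58.1, R 4.3.3, lmFit with eBayes) held a mean for each of the 6 groups over all 18 arrays, with Benjamini-Hochberg adjustment over all genes, and a gene was called at an adjusted p under 0.05. The script was tested on simulated data. Errors of differences are standard errors of this fit. With 3 arrays in a group, precision is limited by their number.

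The members and lists were chosen with earlier results of these data known. All members were counted. Array values are given for the 2 members of each role with the largest average difference, members higher in FL in any comparison and those with the largest called difference between LT-HSC and MPP. Of other pathway genes up to 4 called per list and the receptors and Jak kinases are named, and of marker lists up to 2 called per list. Kdm5d, Uty and the stretches around uncalled ISRE cores were chosen after the values were seen. Promoter sequences came from RefSeq (GRCm38.p6) by symbol. Alternatives are given in the closing section.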

Additional observations from a re-analysis of the deposited data

Results flagged for a closer look

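Oas1a and Bst2 were flagged because every array of FL lay on one side of BM in one population and on the other side in another. How many of all genes do so was not counted, so this is not read as a result about these members. The FL minus BM difference of Oas1a was 0.46 in ST-HSC and -0.41 in MPP, and that of Bst2 was -0.21 in LT-HSC and 0.40 in ST-HSC. The limma F test of the interaction of source and population passed for neither (adjusted p = 0.119 for Oas1a and 0.0827 for Bst2). Groups of 3 arrays are too small for a test of single outlying arrays.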

How the results depend on the processing

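The count of 31 members lower in FL on average was 31 without each single array, with median centring, with repeated quantile normalization, with probe sets of a gene averaged, with a trend and robust variance prior and without the 4 narrow arrays, and centring, quantile normalization and leaving out the narrow arrays each called the same 31 genes. It was 30 without the 30% dimmest genes, 32 with array weights, 30 without FL ST-HSC b and c and 22 without the sgEzh2 arrays. The alternative without FL ST-HSC b and c was chosen after seeing the data. The cause of the changes below was not tested. Counts are of members unless stated.

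The replicate letters did not pair the arrays: of 45 correlations between same-lettered arrays 11 were over 0.1 (range -0.46 to 0.53), and 6 of 18 arrays correlated best with their own letter. With a fixed replicate block the count lower in FL LT-HSC than in FL MPP was 2 in place of 5, and with a random block that in BM LT-HSC against BM ST-HSC was 2 in place of 1. The average stayed at 31 with both blocks.

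With the neutrophil covariate 4 were lower in FL on average, 2 in LT-HSC, 2 in ST-HSC (with 0 higher) and 5 in MPP. It gave 2 higher in FL LT-HSC and in BM LT-HSC than in MPP, 1 lower in BM LT-HSC than in BM MPP, 0 lower in BM LT-HSC and 1 lower in BM ST-HSC than in ST-HSC and MPP respectively, 1 interaction call, and 7 lower and 1 higher of the other pathway genes. With a fold of at least 1.5, 11 were lower on average, 2 higher in ST-HSC, 1 lower in FL LT-HSC than in FL MPP and 0 higher or lower in the BM LT-HSC comparisons that changed, with 21 lower and 0 higher pathway genes.

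With only the groups compared in the fit, 5 were lower in LT-HSC and 29 in MPP. Between populations it gave 2 lower and 2 higher for FL LT-HSC against MPP, 1 lower and 0 higher for BM LT-HSC against MPP, 0 and 0 for BM LT-HSC against ST-HSC, and 1 lower for BM ST-HSC against MPP. Without the sgEzh2 arrays, 10, 6 and 4 were lower in LT-HSC, ST-HSC and MPP and 2 higher in ST-HSC. Between FL populations this left 1 lower and 0 higher for LT-HSC against MPP, 1 lower for LT-HSC against ST-HSC and 0 higher for ST-HSC against MPP. In BM it left 1 and 0, 0 and 0, and 0 and 1 (lower and higher) for the same comparisons, with 22 pathway genes lower and 1 higher. Without FL ST-HSC b and c, 5 were lower and 0 higher in ST-HSC, and 3 lower for FL LT-HSC against MPP, 1 for FL LT-HSC against ST-HSC and 0 higher for FL ST-HSC against MPP. In BM it gave 0 higher for LT-HSC against ST-HSC and 1 lower and 1 higher for ST-HSC against MPP, and 2 pathway genes were higher.

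Without the 4 narrow arrays, 0 were higher in ST-HSC, 2 higher in FL LT-HSC and 5 in BM LT-HSC than in MPP, 0 and 0 between BM LT-HSC and ST-HSC, 0 and 0 between BM ST-HSC and MPP, and 1 called in the interaction. Array weights gave 31 lower in MPP, 4 higher in FL LT-HSC and 5 in BM LT-HSC than in MPP, 3 lower and 2 higher for BM LT-HSC against ST-HSC, 10 higher for BM ST-HSC against MPP, 16 in the interaction and 9 pathway genes higher. Quantile normalization gave 2 higher in ST-HSC, 3 higher in FL LT-HSC than in MPP, 2 lower for BM LT-HSC against ST-HSC, and 1 lower and 5 higher for BM ST-HSC against MPP. Leaving out dim genes gave 2 lower for BM LT-HSC against ST-HSC, 5 higher for BM ST-HSC against MPP and 1 in the interaction, median centring 2 for the first of these, and the trend and robust prior 1 in the interaction.

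Leaving out single arrays gave 15 (FL LT-HSC a) to 26 (BM LT-HSC c) lower in LT-HSC, 10 to 12 lower and 0 to 5 higher in ST-HSC, and 9 to 24 lower in MPP. For FL LT-HSC against MPP it gave 1 to 5 lower and 0 to 3 higher, for FL LT-HSC against ST-HSC 2 to 6 lower, and for FL ST-HSC against MPP 3 to 15 higher. For BM the ranges were 1 to 3 lower and 0 to 4 higher (LT-HSC against MPP), 0 to 2 and 0 to 1 (LT-HSC against ST-HSC) and 0 to 4 and 0 to 7 (ST-HSC against MPP). The interaction ranged from 0 to 6, and pathway genes from 31 to 40 lower and 4 to 7 higher.

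Apart from the neutrophil covariate, signs turned in members that were near 0 and not called on average. Leaving out single arrays gave -0.13 (BM LT-HSC c) to 0.0045 (BM LT-HSC a) for Eif2ak2, -0.072 (BM MPP a) to 0.021 (BM LT-HSC b) for Oas1a, -0.074 (BM LT-HSC c) to 0.066 (BM LT-HSC b) for Parp9 and -0.058 (BM LT-HSC c) to 0.064 (BM LT-HSC b) for Ifi35. Without FL ST-HSC b and c Eif2ak2 was at 0.0038 and Oas1a at 0.0046. Without the sgEzh2 arrays Oas1a was at 0.0029 and Parp9 at -0.033, and without the narrow arrays Ifit2 was at -0.11, Parp9 at -0.11 and Ifi35 at -0.059. Quantile normalization gave -0.053 for Bst2 and -0.074 for Ifi35, and array weights -0.045 for Parp9 and -0.038 for Ifi35. With the neutrophil covariate Oasl1 was at 0.036, Ifit2 at -0.99, Ifit3 at 0.75, Bst2 at -0.018, Parp9 at -1.05, Parp14 at 0.46, Cmpk2 at 0.34 and Ifi35 at -1.15 on average, Zbp1 at 0.20 and Cmpk2 at 0.40 in LT-HSC, Ifit2 at -0.17 in ST-HSC and Cmpk2 at 0.11 in MPP. Called differences that turned were those of Cmpk2 on average, in LT-HSC and in MPP, of Zbp1 in LT-HSC and of Ifit2 in ST-HSC.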
